A study of Mus musculus with 12 samples.

Results

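The comparison described here sets cardiac RNA of mice labelled EGFR knockout at 9 weeks of age against that of mice labelled wild type at 7 weeks. Its members were the genes with an entry for the same gene and locus in both of the authors' deposited gene tables, with the status OK in both and all 4 group values above 0. There were 11912 such genes among the 24340 of each table. Poly(A)-selected, stranded RNA-seq was made from 12 cardiac samples in 4 groups of 3. The groups used here were 9wkKO, the epidermal growth factor receptor (EGFR) knockout at 9 weeks, 7wkKO, the same genotype at 7 weeks, and 7wkWT, the wild type at 7 weeks. The 9wkWT samples were not analysed here, so the 9wkKO and 7wkWT groups differ in both age and genotype, and the 2 cannot be told apart. The series calls the mutants cardiac EGFR knockouts, and the labels used here name no Cre driver, strain, sex or dissected chamber. Whether the 3 samples of a group are separate animals is not stated by the labels.

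No deposited test sets 9wkKO against 7wkWT. The level of a gene is the log2 ratio of 7wkKO over 7wkWT plus that of 9wkKO over 7wkKO, each taken within its own table, so a level of 1 is 2-fold above 7wkWT. Each table holds 1 FPKM value per group (fragments scaled to transcript length and library size, as deposited by the authors) and none per sample. Replicate spread and depth are therefore unknown, and no SD or p-value belongs to a level. The error beside a level combines the errors of both ratios implied by the deposited test statistics. It contains the spread of 7wkKO as well as that of the end groups, and its median over the 11912 genes was 0.39. A gene is called above or below 7wkWT where its level is at least 1 or at most -1. The 7wkKO values printed are those of the 7 week table, and they differed from those of the other table by a median of 0.779%.

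EGFR is a receptor tyrosine kinase whose ligands include HB-EGF and whose signal runs in part through the ERK cascade. Under mechanical load or injury, ventricular muscle is known to turn on genes of the fetal heart, among them the natriuretic peptide genes Nppa and Nppb and skeletal actin, Acta1. Atrial muscle carries its own myosin light chains and calcium pump regulator, and hearts also express genes that follow glucocorticoid hormone, the circadian clock and protein-folding stress.

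The labelled tissue carried its defining genes. The ventricular light chain Myl2 was at FPKM 21978 in 9wkKO, 21145 in 7wkKO and 24956 in 7wkWT, and the main adult myosin heavy chain Myh6 was at 5004 in 9wkKO, 6000 in 7wkKO and 5388 in 7wkWT. Of 12 marker genes of thymus, lung and liver, 0 were measured under the rule. Egfr itself was not lower in the samples labelled knockout, at 1.59 in 9wkKO, 1.64 in 7wkKO and 1.20 in 7wkWT (level 0.39, error 0.51). Which part of the gene was deleted is not stated by the labels, and this level therefore does not check them. Transcripts of the Y chromosome and Xist were present in each group, with Eif2s3y at 14.9 in 9wkKO, 21.4 in 7wkKO and 18.5 in 7wkWT and Xist at 3.24 in 9wkKO, 4.42 in 7wkKO and 4.82 in 7wkWT.

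3 genes of the chaperone group and 1 glucocorticoid-responsive gene, all more than 2-fold below 7wkWT, carry near their start a short motif named for the pathway they belong to. Their promoters are shown for that reason, as the 250 bases before the annotated start, 5′ to 3′ on the gene's strand, from RefSeq (GRCm38.p6). Capitals mark GAANNTTC, the core of a heat shock element, in Hspa1b (minus strand, chr17:34959239-34959488), Hspa1a (minus strand, chr17:34972157-34972406) and Dnaja1 (plus strand, chr4:40722218-40722467, 1 of its 3 annotated starts). In Fam107a (minus strand, chr14:8309778-8310027, 1 of 3 starts) they mark ACANNNTGT, the letters of a spaced repeat bound by the glucocorticoid receptor.
Hspa1b: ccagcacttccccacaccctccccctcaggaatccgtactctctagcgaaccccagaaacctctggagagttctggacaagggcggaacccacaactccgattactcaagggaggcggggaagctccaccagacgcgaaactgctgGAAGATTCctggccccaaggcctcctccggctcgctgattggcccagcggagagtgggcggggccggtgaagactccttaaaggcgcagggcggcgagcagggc
Hspa1a: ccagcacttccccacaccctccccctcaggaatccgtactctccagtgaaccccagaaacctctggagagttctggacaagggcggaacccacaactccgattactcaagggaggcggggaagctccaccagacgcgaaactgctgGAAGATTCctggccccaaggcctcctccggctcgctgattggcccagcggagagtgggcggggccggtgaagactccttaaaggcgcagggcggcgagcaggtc
Dnaja1: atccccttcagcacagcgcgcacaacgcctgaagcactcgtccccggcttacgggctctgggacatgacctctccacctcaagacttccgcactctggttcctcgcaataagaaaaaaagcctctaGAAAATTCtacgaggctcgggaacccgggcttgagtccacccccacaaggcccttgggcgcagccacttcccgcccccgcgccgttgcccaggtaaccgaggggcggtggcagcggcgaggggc
Fam107a: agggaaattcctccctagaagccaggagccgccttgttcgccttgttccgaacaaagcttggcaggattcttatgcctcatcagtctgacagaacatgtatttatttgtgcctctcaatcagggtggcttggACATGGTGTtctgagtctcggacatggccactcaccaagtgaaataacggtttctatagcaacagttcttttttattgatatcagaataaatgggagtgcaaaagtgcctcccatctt
The Hspa1a and Hspa1b windows were the same at 247 of 250 bases, and both matches began 104 bases before the gene start. In Dnaja1 the match began 124 bases before the start, and in Fam107a 118 bases before it. Both motifs were searched on both strands. GAANNTTC was found in 6.69% of all 32851 windows of this length. The 20 matched chaperone genes had 29 windows, and 8 of these genes, Hspa1a and Hspa1b counted apart, had a match in at least 1. A share of windows and a count of genes are unlike measures, and no share per gene was taken over all genes. The other 5 chaperone genes with a match, Hspb1, Hspb3, Hspb6, Hspd1 and Hspe1, were within 2-fold of 7wkWT. ACANNNTGT was found in 5.84% of all windows and, again counted per gene, in 4 of the 19 matched glucocorticoid-responsive genes, which had 31 windows. The others with a match, Lcn2, Mt1 and Sgk1, were within 2-fold, and Fkbp5 and Arrdc2, below 2-fold, had none in their windows. A match describes these letters and is not evidence of binding.

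Most genes ended close to their 7wkWT level. The median level was 0.01, and 98.8% of the 11912 genes lay within 2-fold. There were 46 genes at least 2-fold above 7wkWT (0.386% of those measured) and 99 at least 2-fold below (0.831%). Levels were above 0 for 53.2% of the genes and below 0 for 5574 of them. These shares are the background for the list counts given below. The lists were chosen with earlier results of these data known, so no such count is independent evidence. Of the 46 genes above, 22 had a level larger than 2 implied errors, as had 54 of the 99 below. With FPKM of at least 1 in both end groups, 24 genes were above and 46 below, and 22 of the 46 higher genes had an FPKM under 1 in 7wkWT. The last gene inside the upper threshold was Cyp2u1 at 1.01, and the first outside was Ccl2 at 0.99. At the lower threshold they were Rab27a at -1.01 and Gatsl3 at -0.999.

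**Figure D1:**
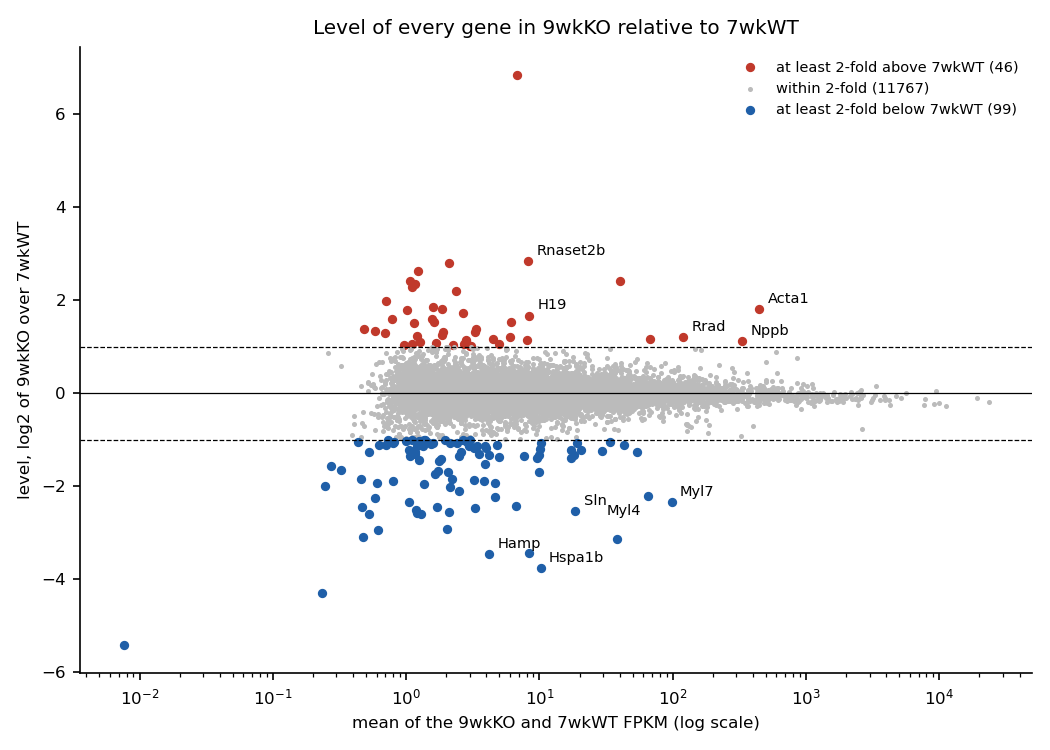
Level of each of the 11912 genes (vertical axis, log2 of 9wkKO over 7wkWT) against the mean of its 9wkKO and 7wkWT FPKM (horizontal axis, log scale). Red points are the 46 genes at least 2-fold above 7wkWT, blue points the 99 at least 2-fold below, grey points the rest, and dashed lines mark 2-fold; Acta1, Nppb and Rrad are abundant genes above, and Myl7 and Myl4 abundant genes below.

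The path to these levels ran through 7wkKO. In the authors' deposited tables, a q under 0.05 marked 17 of the 46 higher genes as higher in 7wkKO than in 7wkWT (1.68% of all members were), and 11 as higher in 9wkKO than in 7wkKO (1.84% of all), while 2 were lower there. Of the 99 lower genes, the authors' deposited tables called 65 lower in 9wkKO than in 7wkKO (2.8% of all) and 8 lower in 7wkKO than in 7wkWT (0.68% of all). Another 10 of the 99 were called higher in 7wkKO than in 7wkWT. The levels are sums of these ratios, so the counts describe how each level was reached and are no test of it.

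**Figure D2:**
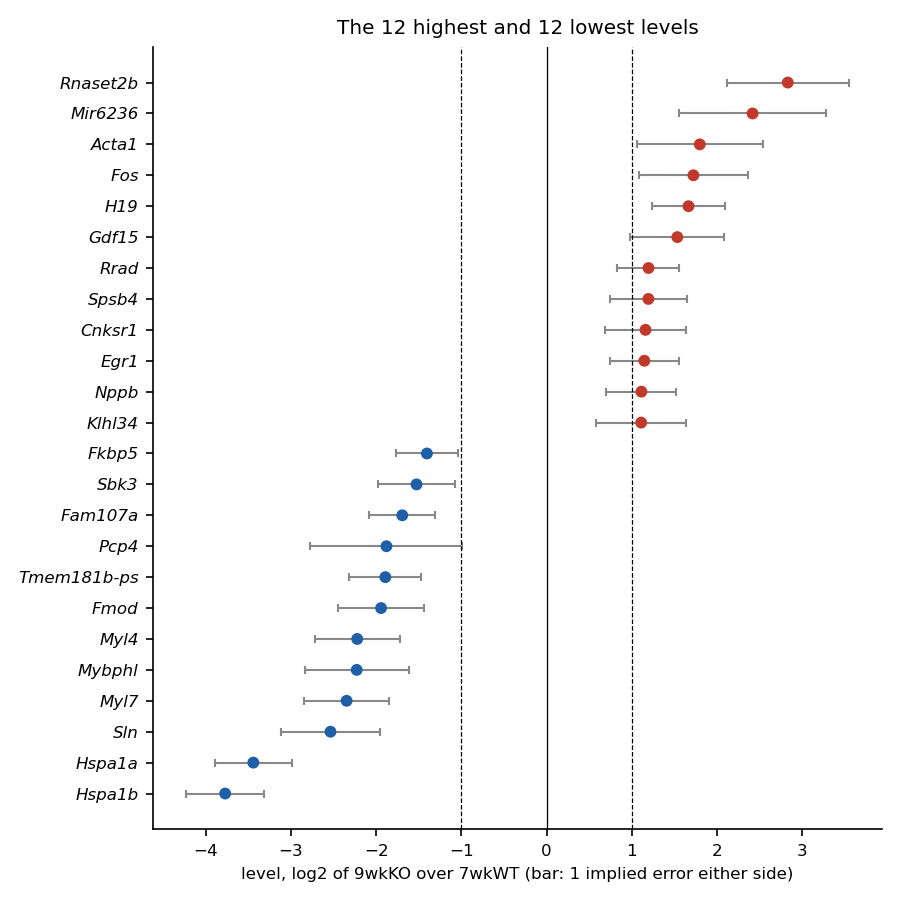
The 12 highest and 12 lowest levels, taken where FPKM reached 1 in 9wkKO and in 7wkWT and the level exceeded 2 implied errors (horizontal axis, log2 of 9wkKO over 7wkWT). Points are levels, bars reach 1 implied error to either side, and dashed lines mark 2-fold; Hspa1b and Hspa1a lie farthest below 0, at -3.77 and -3.44.

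Genes of the fetal and hypertrophy programme were among the abundant genes that ended above 7wkWT. Acta1, the skeletal muscle actin of the fetal heart (mm10, chromosome 8, 123891758 to 123894775), was at FPKM 691 in 9wkKO, 1755 in 7wkKO and 198 in 7wkWT. It ended 3.48-fold above 7wkWT, a level of 1.80 (error 0.74), although below its 7 week knockout value. Nppb, which encodes brain natriuretic peptide (chromosome 4, 147985788 to 147987205), was at 453 in 9wkKO, 608 in 7wkKO and 208 in 7wkWT. Its level was 1.11 (error 0.41). Gdf15, a secreted stress cytokine (chromosome 8, 70629394 to 70631635), stood at 9.15 in 9wkKO, 10.3 in 7wkKO and 3.14 in 7wkWT, a level of 1.53 (error 0.55). For both genes 9wkKO lay between 7wkKO and 7wkWT, and in the authors' deposited table the later ratio had a q of 0.13 for Nppb and 0.898 for Gdf15.

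Other members of the programme ended above 7wkWT by less than 2-fold. Nppa, the atrial natriuretic peptide gene, was at 767 in 9wkKO, 2314 in 7wkKO and 416 in 7wkWT (level 0.87, error 0.53). Ankrd1, a stretch-responsive nuclear and sarcomeric protein gene, was at 1070 in 9wkKO, 1775 in 7wkKO and 630 in 7wkWT (level 0.76, error 0.63). The slow myosin heavy chain gene Myh7 was at 21.9 in 9wkKO, 57.2 in 7wkKO and 15.7 in 7wkWT (level 0.48, error 0.53), and the transcription factor gene Myc at 3.0 in 9wkKO, 7.21 in 7wkKO and 2.33 in 7wkWT (level 0.35, error 0.49). All 4 were highest in 7wkKO, and the 9wkKO value lay nearer to 7wkWT than to 7wkKO on the FPKM scale. Of the 27 measured members of the 29 in this list, 3 were above and 5 below 2-fold (0.386% and 0.831% of all genes). Levels were above 0 for 17 of the 27 (53.2% of all genes), with a median of 0.35 beside 0.01 over all genes. The 5 lower members were Hamp, Myl7, Myl4, Tnni1 and Myl1. Myl7 and Myl4 belong also to the atrial list described further on, and Hamp, the iron hormone hepcidin, was at 0.703 in 9wkKO, 11.6 in 7wkKO and 7.70 in 7wkWT (level -3.46, error 1.13).

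The adult contractile genes stayed nearer to their 7wkWT values, as did the calcium cycling genes Atp2a2, Pln and Ryr2. None of the 25 measured contractile and Z-disc genes passed 2-fold, and their median was -0.03. Tpm1, the main tropomyosin gene, was at 10142 in 9wkKO, 10541 in 7wkKO and 12276 in 7wkWT (level -0.29, error 0.87). Of 30 measured calcium handling genes, 1 was above and 2 below 2-fold (0.386% and 0.831% of all genes), with a median of -0.06. The pump gene Atp2a2 was at 2630 in 9wkKO, 2681 in 7wkKO and 2492 in 7wkWT (level 0.07, error 0.90), and its inhibitor Pln at 2504 in 9wkKO, 2473 in 7wkKO and 2445 in 7wkWT (level 0.02, error 0.65). The calcium release channel gene Ryr2 was at 83.6 in 9wkKO, 94.7 in 7wkKO and 73.9 in 7wkWT (level 0.17, error 0.45). These errors are wide for the most abundant genes, and that of Myh6 was 2.45 beside a level of -0.12.

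Rrad was the 1 calcium handling gene above 2-fold. It encodes a small GTPase that restrains L-type calcium channels (chromosome 8, 104628066 to 104631321), and was at 168 in 9wkKO, 54.1 in 7wkKO and 72.7 in 7wkWT. Its level was 1.20 (error 0.36), and 9wkKO was the highest of the groups, with 7wkKO below 7wkWT. In the authors' deposited table its ratio of 9wkKO over 7wkKO had a q of 0.00237. The calcium channel subunit gene Cacna2d2 went the other way, at 0.369 in 9wkKO, 4.36 in 7wkKO and 2.23 in 7wkWT (level -2.61, error 0.57). Sln, described with the atrial genes below, was the other calcium handling gene below 2-fold.

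Immediate early genes, which are transcribed within minutes of a stimulus, had 2 of 22 measured members above 2-fold and 0 below. Over all genes these shares were 0.386% and 0.831%. Fos, a subunit of the AP-1 dimer (chromosome 12, 85473901 to 85477270), was at 4.12 in 9wkKO, 1.78 in 7wkKO and 1.24 in 7wkWT (level 1.72, error 0.64). Egr1, a zinc finger factor downstream of ERK, was at 11.2 in 9wkKO, 5.81 in 7wkKO and 5.02 in 7wkWT (level 1.15, error 0.41). In both genes the 7wkKO value lay nearer to 7wkWT than to 9wkKO, and the authors' deposited q for 7wkKO over 7wkWT was 0.507 for Fos and 0.756 for Egr1. Junb, the partner of Fos, was at 22.6 in 9wkKO, 12.7 in 7wkKO and 13.1 in 7wkWT (level 0.78, error 0.38). The median of the list was 0.02, and Atf3, at 4.46 in 9wkKO, 11.5 in 7wkKO and 6.22 in 7wkWT, lay on the other side of 0 (level -0.49, error 0.44).

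H19, an imprinted long non-coding RNA abundant in the fetus (chromosome 7, 142575530 to 142578146), was at 12.8 in 9wkKO, 7.11 in 7wkKO and 4.0 in 7wkWT. It was higher at each step, ending 3.17-fold above 7wkWT with a level of 1.67 (error 0.43). Its imprinted neighbour Igf2 had a level of -0.08. Of the 16 measured members of the imprinted growth network, H19 alone was above 2-fold and 0 were below, beside 0.386% and 0.831% of all genes. The median of this list was -0.05.

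The other high levels belonged to genes of several kinds. Spsb4, a substrate adaptor of a ubiquitin ligase (chromosome 9, 96943482 to 97018355), was at 8.39 in 9wkKO, 5.42 in 7wkKO and 3.64 in 7wkWT (level 1.19, error 0.45). Cnksr1, a scaffold of the Ras to ERK pathway (chromosome 4, 134228042 to 134238399), was at 6.19 in 9wkKO, 7.87 in 7wkKO and 2.76 in 7wkWT (level 1.16, error 0.48). Klhl34, a kelch family gene (chromosome X, 157818435 to 157821060), was at 3.87 in 9wkKO, 3.32 in 7wkKO and 1.78 in 7wkWT (level 1.11, error 0.53). Spsb4 was highest in 9wkKO, whereas Cnksr1 and Klhl34 had nearly reached or passed their 9wkKO value in 7wkKO. With a pseudocount of 1 FPKM the levels of Cnksr1 and Klhl34 were 0.93 and 0.80, within 2-fold. Mir6236 was listed at 67.8 in 9wkKO, 25.7 in 7wkKO and 12.6 in 7wkWT (level 2.42, error 0.86). Poly(A)-selected libraries are not designed for a microRNA hairpin, and neither ratio of Mir6236 passed the authors' deposited test (q = 0.831 for the later and 0.918 for the earlier one).

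Several genes that ended above 7wkWT were near or under FPKM 1 in wild type, and they are named here after their values were seen. Klhdc7a (chromosome 4, 139962173 to 139968026) was at 3.69 in 9wkKO, 2.22 in 7wkKO and 0.530 in 7wkWT, a level of 2.79 (error 0.50). Edn3, encoding endothelin 3, was at 1.95 in 9wkKO, 1.90 in 7wkKO and 0.382 in 7wkWT (level 2.34, error 0.72), and the water channel gene Aqp8 at 3.91 in 9wkKO, 3.81 in 7wkKO and 0.856 in 7wkWT (level 2.19, error 0.72). Ndnf, a secreted neurotrophic factor gene, was at 2.48 in 9wkKO, 2.79 in 7wkKO and 0.679 in 7wkWT (level 1.86, error 0.50), and Krt18, an epithelial keratin gene, at 2.13 in 9wkKO, 1.41 in 7wkKO and 0.343 in 7wkWT (level 2.62, error 0.98). In Edn3, Aqp8 and Ndnf the 9wkKO and 7wkKO values were nearly the same.

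The inducible heat shock protein 70 genes had the lowest levels among those that reached FPKM 1 in both end groups and exceeded 2 implied errors. Hspa1b, a chaperone gene switched on by protein damage (chromosome 17, 34956429 to 34959238), was at FPKM 1.41 in 9wkKO, 11.1 in 7wkKO and 19.1 in 7wkWT. It ended 13.7-fold below 7wkWT, with a level of -3.77 (error 0.45). Its neighbour Hspa1a (chromosome 17, 34969359 to 34972156) was at 1.42 in 9wkKO, 8.20 in 7wkKO and 15.3 in 7wkWT (level -3.44, error 0.46). The copies are nearly identical, and how reads were shared between them is uncertain, but their sum had a level of -3.62. In the authors' deposited tables both genes were called lower in 9wkKO than in 7wkKO (q = 0.00237 each) and lower in 7wkKO than in 7wkWT (q = 0.005 each).

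Of the 25 measured cytosolic chaperone genes, 3 were below 2-fold and 0 above, beside 0.831% and 0.386% of all genes. Their median was 0.01, as over all genes. Dnaja1, a co-chaperone of heat shock protein 70 (chromosome 4, 40720154 to 40757885), was the third, at 12.3 in 9wkKO, 20.6 in 7wkKO and 25.7 in 7wkWT (level -1.08, error 0.44). Dnajb1, another such co-chaperone, was at 9.11 in 9wkKO, 13.6 in 7wkKO and 17.9 in 7wkWT (level -0.99, error 0.36). The constitutive member Hspa8 was at 873 in 9wkKO, 961 in 7wkKO and 951 in 7wkWT (level -0.13, error 0.46), and the germ cell paralogue Hspa1l at 6.52 in 9wkKO, 8.48 in 7wkKO and 3.98 in 7wkWT (level 0.70, error 0.43). The abundant small heat shock protein gene Cryab was at 3512 in 9wkKO, 2919 in 7wkKO and 3152 in 7wkWT (level 0.14, error 0.50). In the endoplasmic reticulum chaperone list 0 of 19 measured genes passed 2-fold, 17 levels were above 0 (53.2% of all genes) and the median was 0.20. Hspa5, the heat shock protein 70 of that list, was at 314 in 9wkKO, 241 in 7wkKO and 248 in 7wkWT (level 0.33, error 0.38).

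**Figure D3:**
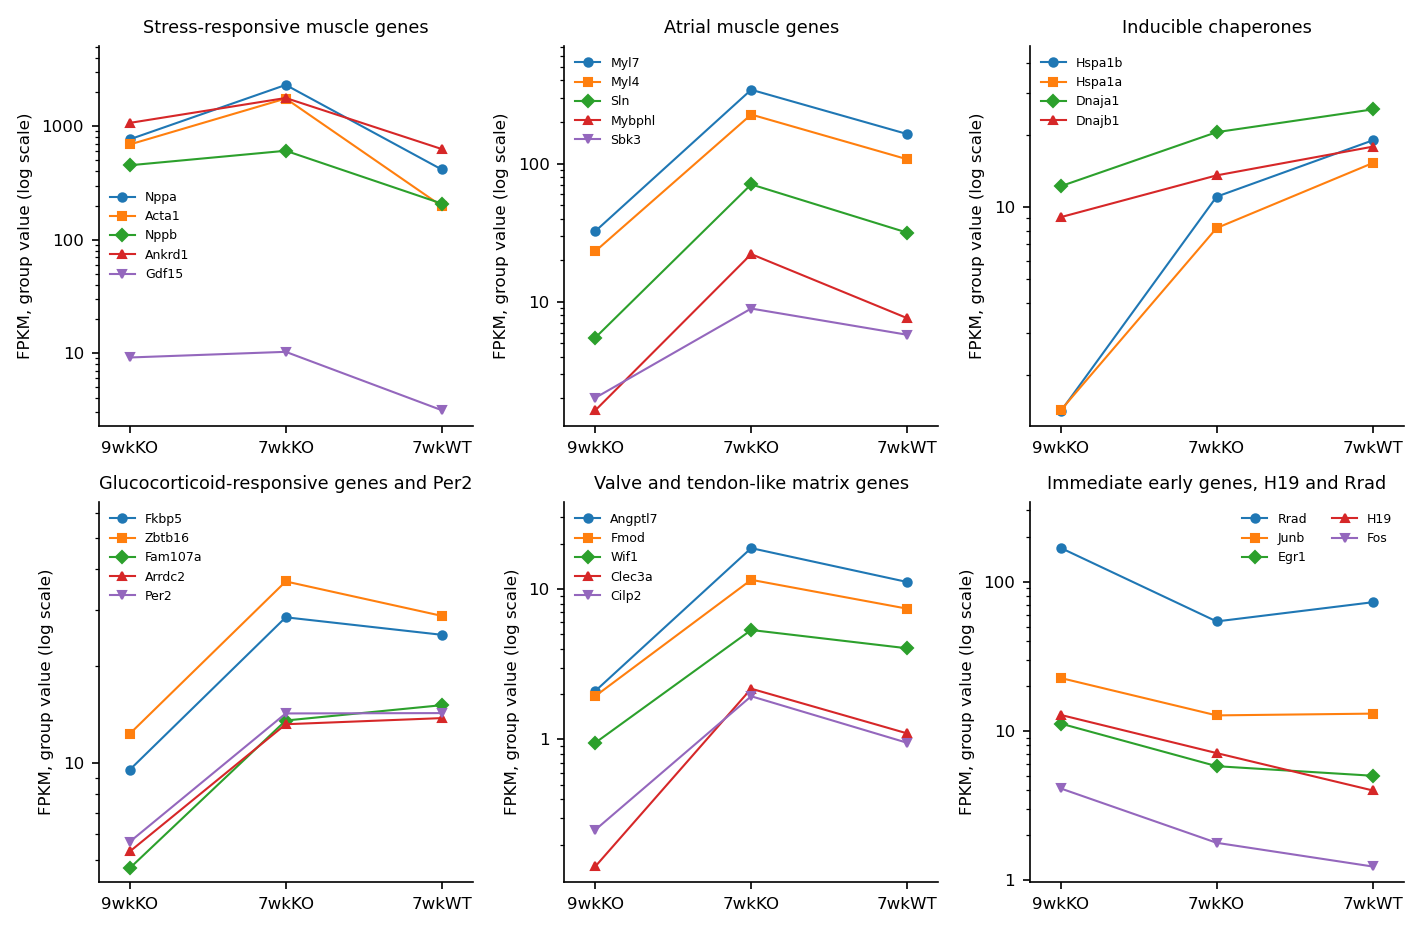
Group FPKM of 29 genes (vertical axes, log scales) in 9wkKO, 7wkKO and 7wkWT, in 6 panels by gene group; each point is the authors' 1 value for a group, so there are no error bars, and lines only join the points of a gene. The stress-responsive muscle genes peak in 7wkKO and stay above 7wkWT in 9wkKO, the atrial and matrix genes peak in 7wkKO and end below 7wkWT, and the chaperones are lowest in 9wkKO.

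Muscle genes typical of the atria ended well below 7wkWT. Sln, the sarcolipin that regulates the calcium pump in atrial muscle (chromosome 9, 53850251 to 53853849), was at 5.51 in 9wkKO, 70.8 in 7wkKO and 31.7 in 7wkWT (level -2.54, error 0.58). Myl7, the atrial regulatory light chain (chromosome 11, 5896637 to 5898782), was at 32.5 in 9wkKO, 343 in 7wkKO and 164 in 7wkWT (level -2.35, error 0.50). Myl4, the atrial essential light chain (chromosome 11, 104550663 to 104587219), was at 23.2 in 9wkKO, 227 in 7wkKO and 108 in 7wkWT (level -2.22, error 0.50). In each of these genes 7wkKO was the highest group and 9wkKO the lowest.

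Mybphl, a myosin-binding protein of atrial and conduction muscle (chromosome 3, 108364911 to 108383741), was at 1.64 in 9wkKO, 22.2 in 7wkKO and 7.63 in 7wkWT (level -2.23, error 0.61). Sbk3, a muscle kinase gene (chromosome 7, 4965260 to 4970961), was at 2.02 in 9wkKO, 8.95 in 7wkKO and 5.78 in 7wkWT (level -1.53, error 0.45), and Cpne5 at 0.0998 in 9wkKO, 1.18 in 7wkKO and 0.846 in 7wkWT (level -3.09, error 0.87). With a pseudocount of 1 FPKM the level of Cpne5 was -0.75, no longer past 2-fold. Of 22 measured genes in the atrial and conduction list, 8 were below 2-fold and 0 above, beside 0.831% and 0.386% of all genes. Levels were below 0 for 16 of the 22, beside 5574 of all 11912 genes, and the median was -0.45. The other lower members were Dkk3 (level -1.35, error 0.45) and Fgf12. Fgf12 was at 0.157 in 9wkKO, 1.34 in 7wkKO and 0.492 in 7wkWT (level -1.66, error 0.83). It was under FPKM 1 in both end groups and was not set singly under the pseudocount.

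The list did not move as a block. The atrial transcription factor genes Tbx5 and Nr2f2 had levels of 0.21 and -0.17, and Nppa, the most abundant member, ended above 7wkWT. The summed FPKM of the 22 genes, carried largely by Nppa, was 1525 in 9wkKO, 3861 in 7wkKO and 1291 in 7wkWT. Bmp10, an atrial marker, was listed at 0 in all 3 groups. The 11 measured ventricular muscle genes had 0 members past 2-fold, a median of -0.12 and sums of 44711 in 9wkKO, 43962 in 7wkKO and 50922 in 7wkWT. In bulk tissue, fewer cells of a type and less RNA per cell cannot be told apart, and the part of tissue composition in these levels was not tested.

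Matrix genes typical of valves and tendon-like tissue were also lower in 9wkKO. Fmod, the collagen-binding proteoglycan fibromodulin (chromosome 1, 134037515 to 134048277), was at 1.94 in 9wkKO, 11.5 in 7wkKO and 7.40 in 7wkWT (level -1.94, error 0.51). Wif1, a secreted Wnt inhibitor, was at 0.950 in 9wkKO, 5.34 in 7wkKO and 4.04 in 7wkWT (level -2.10, error 0.58), and Clec3a, a cartilage lectin, at 0.143 in 9wkKO, 2.17 in 7wkKO and 1.10 in 7wkWT (level -2.95, error 0.93). Angptl7 was at 2.10 in 9wkKO, 18.7 in 7wkKO and 11.1 in 7wkWT (level -2.42, error 1.67), and the cartilage proteoglycan gene Chad at 0.536 in 9wkKO, 4.15 in 7wkKO and 2.90 in 7wkWT (level -2.45, error 3.01), so that the errors of this pair were wide.

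Of 11 measured genes in the valve and tendon-like list, 6 were below 2-fold and 0 above, beside 0.831% and 0.386% of all genes. Levels were below 0 for 10 of the 11, beside 5574 of all 11912 genes, and the median was -1.94. With a pseudocount of 1 FPKM the median was -0.65, within 2-fold, and the level of Clec3a was -0.88. The summed FPKM of the 11 genes was 28.5 in 9wkKO, 80.8 in 7wkKO and 53.1 in 7wkWT. Thbs4, a matrix protein also made by loaded muscle, was the exception at 5.13 in 9wkKO, 7.58 in 7wkKO and 3.57 in 7wkWT (level 0.51, error 0.44), and Tnmd and Hapln1, a pair of defining markers, were under 0.3 in every group and not measured. The general extracellular matrix list differed in its median, which was 0.04. Of its 49 measured members 3 were below 2-fold and 0 above, beside 0.831% and 0.386% of all genes. They were Angptl7, Fmod and Dkk3, and Angptl7 and Fmod belong also to the valve and tendon-like list. The 18 measured fibroblast markers had 0 members past 2-fold and a median of 0.03, and Dcn, which encodes the proteoglycan decorin, was at 403 in 9wkKO, 492 in 7wkKO and 478 in 7wkWT (level -0.26, error 0.40).

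Glucocorticoid-responsive genes had 4 of 20 measured members below 2-fold and 0 above, beside 0.831% and 0.386% of all genes. Fam107a, an actin-binding stress gene (chromosome 14, 8296278 to 8309776), was at 4.71 in 9wkKO, 13.5 in 7wkKO and 15.1 in 7wkWT (level -1.69, error 0.39). Fkbp5, a co-chaperone of the glucocorticoid receptor (chromosome 17, 28398753 to 28486149), was at 9.52 in 9wkKO, 28.4 in 7wkKO and 25.04 in 7wkWT (level -1.41, error 0.36). Zbtb16, a zinc finger repressor gene, was at 12.3 in 9wkKO, 36.7 in 7wkKO and 28.7 in 7wkWT (level -1.23, error 0.36), and Arrdc2 at 5.30 in 9wkKO, 13.2 in 7wkKO and 13.8 in 7wkWT (level -1.39, error 0.40).

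In all 4 genes the 9wkKO value stood apart from the other groups. The authors' deposited table called each lower in 9wkKO than in 7wkKO (q = 0.00237), and none passed at 7 weeks, with q from 0.252 for Zbtb16 to 0.968 for Arrdc2. Tsc22d3, which encodes the leucine zipper protein GILZ, was at 104 in 9wkKO, 160 in 7wkKO and 171 in 7wkWT (level -0.73, error 0.36). The list median was -0.22, and its members were divided, with 9 levels above 0. The metallothionein gene Mt2 was at 194 in 9wkKO, 125 in 7wkKO and 99.8 in 7wkWT (level 0.95, error 0.37), and Sgk1 at 77.1 in 9wkKO, 67.9 in 7wkKO and 75.6 in 7wkWT (level 0.02, error 0.36).

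Among the 17 measured genes of the circadian clock, 1 was below 2-fold and 0 above, beside 0.831% and 0.386% of all genes. Per2, a repressor of the core loop (chromosome 1, 91415982 to 91459328), was at 5.68 in 9wkKO, 14.3 in 7wkKO and 14.3 in 7wkWT (level -1.34, error 0.35). Outputs of the loop lay on the same side of 0 at smaller size. Ciart was at 7.60 in 9wkKO, 9.39 in 7wkKO and 14.7 in 7wkWT (level -0.96, error 0.50), Hlf at 8.37 in 9wkKO, 14.4 in 7wkKO and 16.1 in 7wkWT (level -0.95, error 0.35), and Dbp at 98.8 in 9wkKO, 115 in 7wkKO and 158 in 7wkWT (level -0.69, error 0.40). The list had 13 levels below 0, beside 5574 of all 11912 genes, and a median of -0.33. Arntl, which encodes the activator BMAL1, was tested by the authors only in the later table and lies outside the rule, at 1.57 in 9wkKO, 0.403 in 7wkKO and 0.491 in 7wkWT. The time of day of collection was not among the labels used here, and its part in these levels was not tested. The core motif CACGTG of the clock activators was found in 6.02% of all windows. Of the 16 matched clock genes, which had 21 windows, 5 had a match, Per1 and Ciart among them and Per2 not. No share per gene was taken over all genes.

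**Figure D4:**
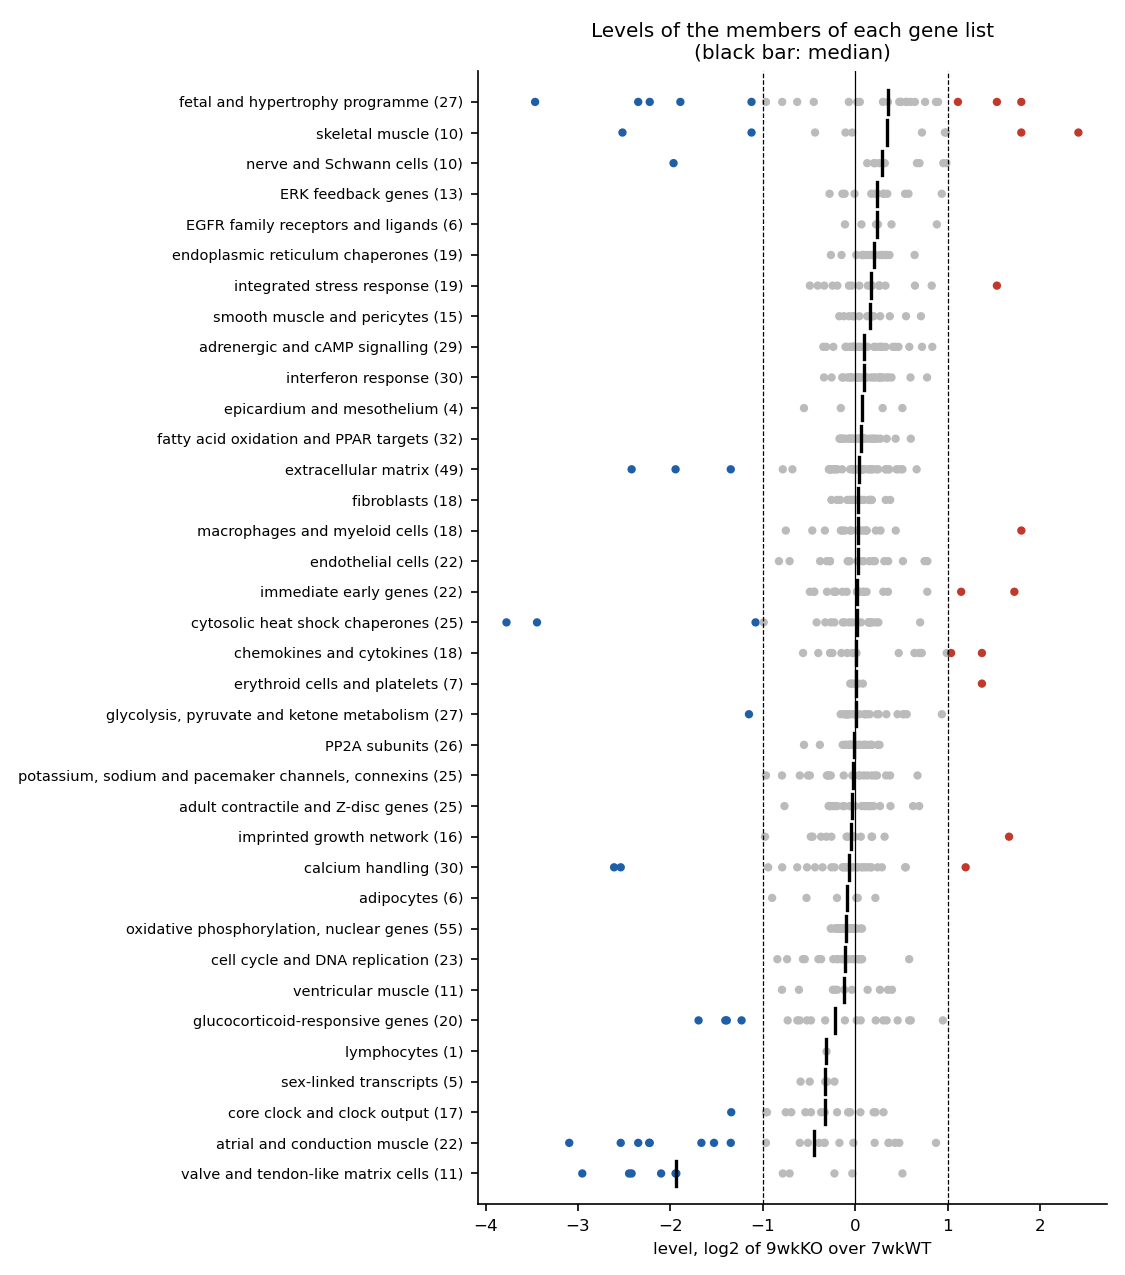
Levels (horizontal axis, log2 of 9wkKO over 7wkWT) of the measured members of 36 gene lists, whose number stands in parentheses. Points are genes, red at least 2-fold above and blue at least 2-fold below 7wkWT, black bars are list medians and dashed lines mark 2-fold; the median of the valve and tendon-like list, -1.94 here and -0.65 with a pseudocount of 1 FPKM, lies farthest from 0 in the plot.

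The 55 nuclear genes of oxidative phosphorylation had 0 members past 2-fold, with levels between -0.26 and 0.07 and a median of -0.10. Levels were below 0 for 50 of the 55, beside 5574 of all 11912 genes. Cox7a1, a muscle subunit of cytochrome oxidase, was at 3872 in 9wkKO, 3314 in 7wkKO and 4611 in 7wkWT (level -0.26, error 0.40). Each of these levels was smaller than its own error, and the genes share their samples, so the common side of 0 is a description. The 32 fatty acid oxidation genes had 0 members past 2-fold and a median of 0.06, and Fabp3 was at 4659 in 9wkKO, 4295 in 7wkKO and 4855 in 7wkWT (level -0.07, error 0.48). Of 27 glycolysis and ketone genes, Pfkfb1 alone was past 2-fold, at 1.86 in 9wkKO, 1.43 in 7wkKO and 4.09 in 7wkWT (level -1.15, error 0.68). Over all genes 0.831% were below 2-fold.

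The genes named by the study's title were within 2-fold. Ppp2r3a, which encodes the PR72 subunit of protein phosphatase 2A, was at 49.7 in 9wkKO, 65.2 in 7wkKO and 72.5 in 7wkWT. Its level was -0.55 (error 0.36), the lowest of the 26 measured PP2A genes, of which 0 passed 2-fold around a median of -0.01. The catalytic subunit gene Ppp2ca was at 138 in 9wkKO, 131 in 7wkKO and 121 in 7wkWT (level 0.18, error 0.35). In the EGFR family list 6 of 15 genes were measured, 0 passed 2-fold and the median was 0.24. The ligand gene Hbegf was at 11.4 in 9wkKO, 14.5 in 7wkKO and 9.56 in 7wkWT (level 0.25, error 0.38), and the receptor gene Erbb3 at 2.05 in 9wkKO, 1.94 in 7wkKO and 1.10 in 7wkWT (level 0.88, error 0.52). Among 13 ERK feedback genes 0 passed 2-fold, and the phosphatase gene Dusp1 was at 66.3 in 9wkKO, 56.4 in 7wkKO and 53.3 in 7wkWT (level 0.30, error 0.35).

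Inflammatory genes ended near 7wkWT, apart from a few of low abundance. The 30 measured interferon response genes had 0 members past 2-fold and a median of 0.10, and Ifitm3 was at 236 in 9wkKO, 185 in 7wkKO and 232 in 7wkWT (level 0.02, error 0.35). Among 18 chemokine and cytokine genes, 2 were above 2-fold and 0 below, beside 0.386% and 0.831% of all genes, with a median of 0.01. The 2 higher genes were Ppbp, a platelet chemokine, at 4.83 in 9wkKO, 1.33 in 7wkKO and 1.85 in 7wkWT (level 1.37, error 0.85), and Ccl7, a monocyte chemokine, at 3.02 in 9wkKO, 1.01 in 7wkKO and 1.46 in 7wkWT (level 1.04, error 1.06). Of 18 macrophage and myeloid markers, S100a9 alone was past 2-fold, at 2.91 in 9wkKO, 0.594 in 7wkKO and 0.829 in 7wkWT, with an error of 1.93 beside its level of 1.80. Over all genes 0.386% were above 2-fold. The 22 endothelial markers had 0 members past 2-fold and a median of 0.03.

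Skeletal muscle markers were divided, with 2 of 10 measured genes above and 2 below 2-fold, beside 0.386% and 0.831% of all genes. Apart from Acta1, the fast calcium pump gene Atp2a1 was above, at 1.80 in 9wkKO, 1.51 in 7wkKO and 0.334 in 7wkWT (level 2.42, error 1.36). The fast light chain gene Myl1 was below, at 27.1 in 9wkKO, 40.6 in 7wkKO and 58.6 in 7wkWT (level -1.12, error 0.38), as was Pvalb at 0.353 in 9wkKO, 2.03 in 7wkKO and 2.00 in 7wkWT (level -2.52, error 1.13). Myh4, a defining fast myosin gene, was listed at 0 in all 3 groups.

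Several large levels belonged to genes that have a copy or a similarly named gene. Rnaset2b, a ribonuclease gene (chromosome 17, 8128591 to 8147832), had the highest level among the genes chosen by rule, at 14.4 in 9wkKO, 3.35 in 7wkKO and 2.01 in 7wkWT (level 2.83, error 0.72). The deposited table has a second entry at the same locus that joins it with its copy Rnaset2a, at 23.8 in 9wkKO, 17.4 in 7wkKO and 21.2 in 7wkWT. The sum of both entries was 38.2 in 9wkKO, 20.7 in 7wkKO and 23.2 in 7wkWT, a level of 0.71. Tmem181b-ps, a pseudogene on the same chromosome (chromosome 17, 6439002 to 6450994), was at 1.64 in 9wkKO, 3.92 in 7wkKO and 6.06 in 7wkWT (level -1.89, error 0.42), while the similarly named gene Tmem181a was at 4.02 in 9wkKO, 4.10 in 7wkKO and 4.12 in 7wkWT (level -0.04). No sum was taken for Tmem181b-ps and Tmem181a. Nearby on this chromosome, Dynlt1b had a level of -1.69 (error 0.998), and Rsph3a and Rsph3b had levels of 0.97 and 0.89, within 2-fold. The highest level of all, 6.83 with an error of 3.58, was an entry that joins Eif3j1 with Eif3j2. Summed with the separate Eif3j2 entry it was 23.8 in 9wkKO, 24.5 in 7wkKO and 24.3 in 7wkWT, a level of -0.04. How the authors' counting divided reads between copies was not tested. Pcp4, a calmodulin regulator gene (chromosome 16, 96467606 to 96525793), completes the genes chosen by rule, at 1.38 in 9wkKO, 3.26 in 7wkKO and 5.03 in 7wkWT (level -1.88, error 0.89).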

How the data were processed

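Poly(A)-selected, stranded libraries were prepared, per the labels' protocols, and TopHat2, Cuffdiff and mm10 are named by the submitters' processing notes, with no versions or settings given in the sources used here. The FPKM values are 1 per group, as deposited by the authors, and depth per sample is unknown. Per the file headers, the gene tables also give each entry's status. They further hold the deposited test statistic, a score, and the deposited p-value and q-value of each ratio. Groups were taken from the labels.

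Levels in 9wkKO over 7wkWT were computed as the sum of the log2 ratios of the 2 deposited gene tables, which were normalized separately, with no pseudocount. The fold of each table divided by its deposited statistic gave an error per ratio, and the 2 errors were combined as the root of their summed squares. Of 24335 entries joined on gene and locus, 11913 had the status OK in both tables, and 1 of these with a value of 0 was left out. A further 205 had it in 1 table only. No test of a level was possible, and 2-fold was used as the threshold in the place of one. Genes named were the 12 highest and 12 lowest levels with FPKM of at least 1 in both end groups and a level over 2 errors, a fixed set of cardiac genes, and up to 4 members past 2-fold of each list described or its 2 most abundant. Entries that join several symbols (14 members) were not named under this rule. Other genes were chosen after their values were seen, and 1 of these is not reported here. The members and the gene lists were chosen with earlier results of these data known, so no count of list members is independent evidence. File starts were raised by 1. The calculation was tested on simulated data. Python 3.11.15, NumPy 2.4.6, pandas 2.3.3 and Matplotlib 3.10.9 were used. The alternatives were the ratio across tables, centring, a pseudocount, filters on FPKM, status, error and agreement of the tables, another fold threshold and isoforms.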

Additional observations from a re-analysis of the deposited data

How the results depend on the processing

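The count of 46 genes above and 99 below 2-fold stayed within 1.5 times under the ratio taken across the 2 tables (47 and 97), centring on the median level (44 and 103), a minimum mean FPKM of 1 (40 and 79) and 7wkKO values within 5% between tables (46 and 99). With a pseudocount of 1 FPKM the counts were 21 and 43, and with levels past 2 implied errors 22 and 54. Over the 15690 entries with 4 values above 0 whatever their status they were 481 and 628, over 15176 isoforms 315 and 443, and at 1.5-fold 264 and 300. The pseudocount shrinks the levels of low genes by construction, and the status and isoform alternatives enlarge or replace the set counted. The error filter counts a part of the called genes, and 1.5-fold is a looser cut on the same levels, so these counts differ by construction. For 90 single genes and 36 list medians under 3 alternatives each, none changed the sign of a level past 2-fold, and 9 levels and 1 median moved by more than their error. All of these were under the pseudocount, with the valve and tendon-like median at -0.65 and the level of Hspa1b at -3.07. Among the 90 genes, the pseudocount also put some back within 2-fold, at -0.88 for Clec3a, -0.84 for Pfkfb1, -0.75 for Cpne5 and Tnni1, 0.70 for Ccl7, 0.80 for Klhl34 and 0.93 for Cnksr1. It shrank others by over 1.5 times that stayed past 2-fold, to -1.38 for Wif1, -1.35 for Chad, -1.25 for Cacna2d2, -1.16 for Pvalb, -1.03 for Dbh, 1.06 for Atp2a1 and 1.09 for S100a9. Genes outside the 90, such as Sfrp2, Ddc, Pnmt, Wnt5a and Fgf12, were not set singly under the pseudocount. No paired analysis was possible because only group values were used, and leaving out replicates could not be run for the same reason. Depth is unknown, and no replicate spread limits the levels other than through the implied errors.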

Other observations

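Further groups were picked after their values were seen and are given as values. Genes grouped by family as secreted Wnt antagonists had 4 of 6 measured members at least 2-fold below 7wkWT and 0 above. Over all genes these shares were 0.831% and 0.386%. Sfrp5 was at FPKM 0.476 in 9wkKO, 4.37 in 7wkKO and 3.58 in 7wkWT (level -2.92, error 0.70). Sfrp2 was at 2.02 in 9wkKO, 4.46 in 7wkKO and 4.04 in 7wkWT (level -1.01, error 0.52), and the other lower members were Wif1 and Dkk3. Dkk3 was placed here by its family alone, and it is counted also in the atrial and the extracellular matrix lists. Sfrp1 and Frzb stayed near 7wkWT, with levels of 0.20 and 0.05. The ligand gene Wnt5a was above, at 4.09 in 9wkKO, 2.44 in 7wkKO and 2.01 in 7wkWT (level 1.01, error 0.47). Sfrp5, Sfrp2 and Wnt5a were not set singly under the pseudocount, which shrinks the levels of low genes. They are therefore not shown to stay past 2-fold under it, and Sfrp2 and Wnt5a lay close to the threshold without it.

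Genes of catecholamine synthesis were of low abundance and lower in 9wkKO. Dbh, which encodes the enzyme that makes noradrenaline from dopamine, was at 0.561 in 9wkKO, 1.62 in 7wkKO and 2.17 in 7wkWT (level -1.97, error 0.70). Ddc, encoding the decarboxylase that makes dopamine, was at 1.42 in 9wkKO, 2.87 in 7wkKO and 3.59 in 7wkWT (level -1.35, error 0.60), and Pnmt, encoding the enzyme that makes adrenaline, at 0.527 in 9wkKO, 1.13 in 7wkKO and 1.08 in 7wkWT (level -1.05, error 1.18). With a pseudocount of 1 FPKM the level of Dbh was -1.03, and Ddc and Pnmt were not set singly under it. The pseudocount shrinks the levels of low genes, so Ddc and Pnmt are not shown to stay past 2-fold under it. The breakdown enzyme gene Maoa had a level of 0.12. The first enzyme gene of the pathway, Th, was under 0.02 in each group and not measured. Nerve and Schwann cell markers other than Dbh lay above 0 in all 9 measured genes, beside 53.2% of all genes. Among them Sox10 was at 1.43 in 9wkKO, 0.820 in 7wkKO and 0.733 in 7wkWT (level 0.95, error 0.73).

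Of 11 platelet transcripts 3 were measured, with 1 above 2-fold and 0 below, beside 0.386% and 0.831% of all genes. Others lay outside the rule, and all of these but Gp1bb and Gp6 were listed above 7wkWT. Itga2b was at 1.13 in 9wkKO, 0.628 in 7wkKO and 0.551 in 7wkWT, Gp9 at 1.11 in 9wkKO, 0.325 in 7wkKO and 0.530 in 7wkWT, and Tubb1 at 1.06 in 9wkKO, 0.471 in 7wkKO and 0.506 in 7wkWT. Clec1b was at 0.556 in 9wkKO, 0.262 in 7wkKO and 0.254 in 7wkWT. Treml1 was at 0.341 in 9wkKO, 0.234 in 7wkKO and 0.158 in 7wkWT, and Gp1ba at 0.116 in 9wkKO, 0.0775 in 7wkKO and 0.0629 in 7wkWT. Gp1bb was at 0.474 in 9wkKO, 0.451 in 7wkKO and 0.546 in 7wkWT, and Gp6 at 0.0723 in 9wkKO, 0.0239 in 7wkKO and 0.138 in 7wkWT. Pf4, a measured member, was at 36.9 in 9wkKO, 26.3 in 7wkKO and 36.3 in 7wkWT, a level of 0.01. Spon2, also outside the rule, was at 2.38 in 9wkKO, 0.284 in 7wkKO and 0.301 in 7wkWT.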
